A study of Homo sapiens with 4 samples.

Results

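The genes described here are the EGF receptor family (EGFR, ERBB2, ERBB3 and ERBB4), 5 of its ligands (AREG, EREG, HBEGF, TGFA and BTC) and ERRFI1, an inhibitor of the receptors. They were taken by symbol, as every probe set that the platform annotation gives to 1 of these genes alone. Of the 10 genes, 9 had such a probe set, 33 probe sets in all, among 19775 genes and 41097 probe sets that name 1 gene. AREG had no probe set that names it alone in the annotation used and was not analysed here. Expression was measured on 4 Affymetrix arrays in Panc1 cells, an established human pancreatic cancer line, with 1 array per condition. The conditions were romidepsin (Rom), tamoxifen (Tam) and romidepsin plus tamoxifen (Combo), each for 24 hours, and no treatment (Untreated). Romidepsin blocks histone deacetylases, which remove acetyl groups from histones. Tamoxifen binds the estrogen receptor and blocks it in some tissues and activates it in others. Doses are not given in the sources used here, and all samples are of 1 cell line, so the values describe 4 cultures.

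The receptors are tyrosine kinases that sit in the cell membrane and pair when a ligand binds. EGFR binds EGF, TGF-alpha and amphiregulin, and ERBB4 and EGFR both bind betacellulin, HB-EGF and epiregulin. ERBB2 has no known ligand and acts as a partner, while ERBB3 binds neuregulins and has very weak kinase activity. The ligands are made as membrane proteins and are cut free by metalloproteases. The signal runs through adaptors to RAS and the ERK kinases and through PI3K to AKT, and EGFR is often abundant in pancreatic duct cancers.

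Values are MAS5 signals, the summary of a probe set's intensities on a linear scale. Each gene is represented by the brightest of its probe sets (mean of the log2 signals over the arrays), and signals under the median of all arrays, 66.4, were set to that floor. A fold against a value at the floor is a lower bound. A gene rose or fell where it differed by at least 2-fold between 2 arrays. With 1 array a group there was no test and no p-value, and signals of different probe sets are not compared with each other. The technical spread that could be measured, the median absolute difference in log2 fold between 2 probe sets for the same gene, was 0.22 to 0.29 over the 5 comparisons, and it leaves out variation between cultures. Log2 folds over the 18 spike-in probe sets had SDs between 0.09 and 0.11. How precise a value can be is set by having 1 array per condition.

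RNA integrity was read from control probes as 3′ over 5′ signal. For actin the ratio was 1.18 on the Rom array, 1.39 on the Tam array, 1.73 on the Combo array and 1.21 on the Untreated array, and its part in the results below was not tested. For GAPDH it was 1.03 on the Rom array, 1.04 on the Tam array, 1.07 on the Combo array and 1.07 on the Untreated array. Of 6 epithelial markers, 5 were above the floor on the Rom, Tam and Combo arrays and 4 on the Untreated array, and KRT19 was below it on all 4. The summed signal of these markers was 32349 on the Rom array, 23533 on the Tam array, 17054 on the Combo array and 35589.5 on the Untreated array, and most of it was KRT18 and KRT8. The markers went both ways: in Combo over Untreated KRT18 was 2.24-fold and KRT7 3.86-fold lower, while CDH1 was 3.93-fold and EPCAM at least 7.15-fold higher. In Rom over Untreated CDH1 was 4.61-fold and EPCAM at least 5.96-fold higher. Of 5 measurable markers of leukocytes, endothelium, fibroblasts and beta cells, PTPRC, CD3E and INS were below the floor everywhere. The other 2, PECAM1 and DCN, were above it on all 4 arrays. PECAM1 read between 110 and 136, and DCN between 67.1 and 91.6. The sum over the list lay between 251 and 276. As the RNA came from whole cultures, fewer cells that express a gene and less RNA per cell cannot be told apart.

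The receptor genes EGFR and ERBB2 and the ligand gene EREG fell on the Rom array and the ligand gene TGFA rose, among 7 genes measured against the Untreated array. These are 3 falls and 1 rise, where 9.27% of all measured genes fell, 14.3% rose and 23.6% did either. On the Tam array 1 of 7 measured genes, HBEGF, fell and 0 rose, against 1.07% of all genes falling, 3.70% rising and 4.77% doing either. The Combo array against the Untreated array again had 3 falls (EGFR, ERBB2 and EREG) and 1 rise (TGFA) among 8 measured, against 14.4% falling, 19.8% rising and 34.1% doing either. All 3 comparisons share the Untreated array, so they are not independent of each other. As the genes were chosen with earlier results of these data known, the contrast with all genes is a description only. With the median over each gene's probe sets, dim ones included, 0 of these genes passed 2-fold in any of the 3.

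**Figure D1:**
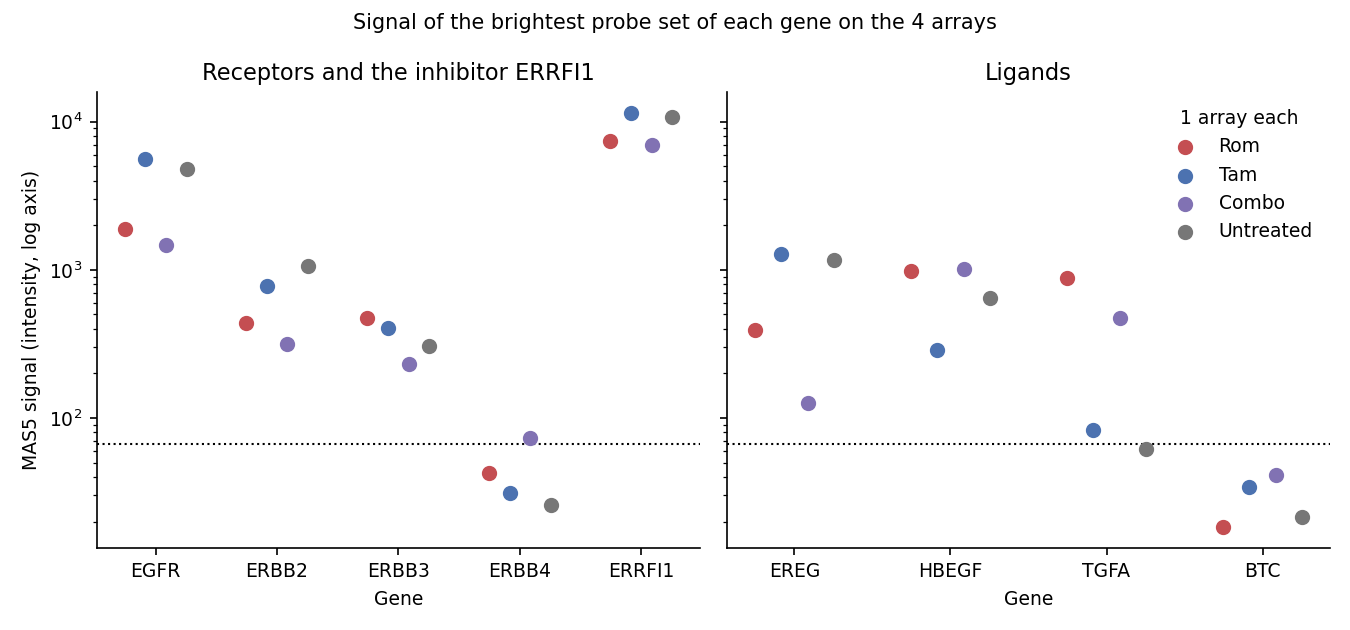
MAS5 signal (log axis) of the brightest probe set of each gene on the Rom, Tam, Combo and Untreated arrays, with 1 point per array and the floor of 66.4 as a dotted line. EGFR, ERBB2 and EREG are lower on the Rom and Combo arrays than on the Tam and Untreated arrays, TGFA is higher there, and BTC is below the floor on all 4 arrays.

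EGFR, the receptor that gives the family its name, had a signal of 1893 on the Rom array, 5626 on the Tam array and 1470.0 on the Combo array, against 4784 on the Untreated array. Both arrays with romidepsin were low and both without it were high. EGFR was thus 2.53-fold lower with romidepsin and 3.25-fold lower with the combination than in untreated cells, and 3.83-fold lower in Combo than in Tam cells. The order over the arrays was Tam, Untreated, Rom, Combo. Tam and Untreated differed by 0.23 and Combo and Rom by -0.37 on the log2 scale, and neither reached 2-fold.

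EGFR had 9 probe sets, of which 7 lay above the floor on at least 1 array. In Rom over Untreated, 6 were above the floor on both arrays, all 6 were lower, and 3 fell at least 2-fold. Log2 folds of the 6 lay between -1.82 and -0.46. The -1.82, 1 of the 3 falls, came from a dim probe set barely above the floor on the Rom array, at 66.4, against 235 on the Untreated array. In Combo over Untreated all 5 such probe sets were lower, between -1.80 and -0.69, and 3 fell at least 2-fold. With tamoxifen the EGFR probe sets differed: 1 was higher and 5 were lower, and the lowest, a dim one, was at 72.8 on the Tam array against 170 on the Untreated array, a log2 fold of -1.22. The dim EGFR probe set at 66.4 on the Rom array read 146 on the Combo array, higher by 1.13, while the other 4 probe sets in that comparison were lower. When the median over all 9 probe sets was taken in place of the brightest, the EGFR log2 folds were -0.89 for Rom and -0.96 for Combo over Untreated, just short of 2-fold. The 3 brightest EGFR probe sets, from the brightest down, had log2 folds of -1.34, -1.53 and -0.72 in Rom over Untreated and of -1.70, -1.80 and -1.42 in Combo over Untreated.

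**Figure D2:**
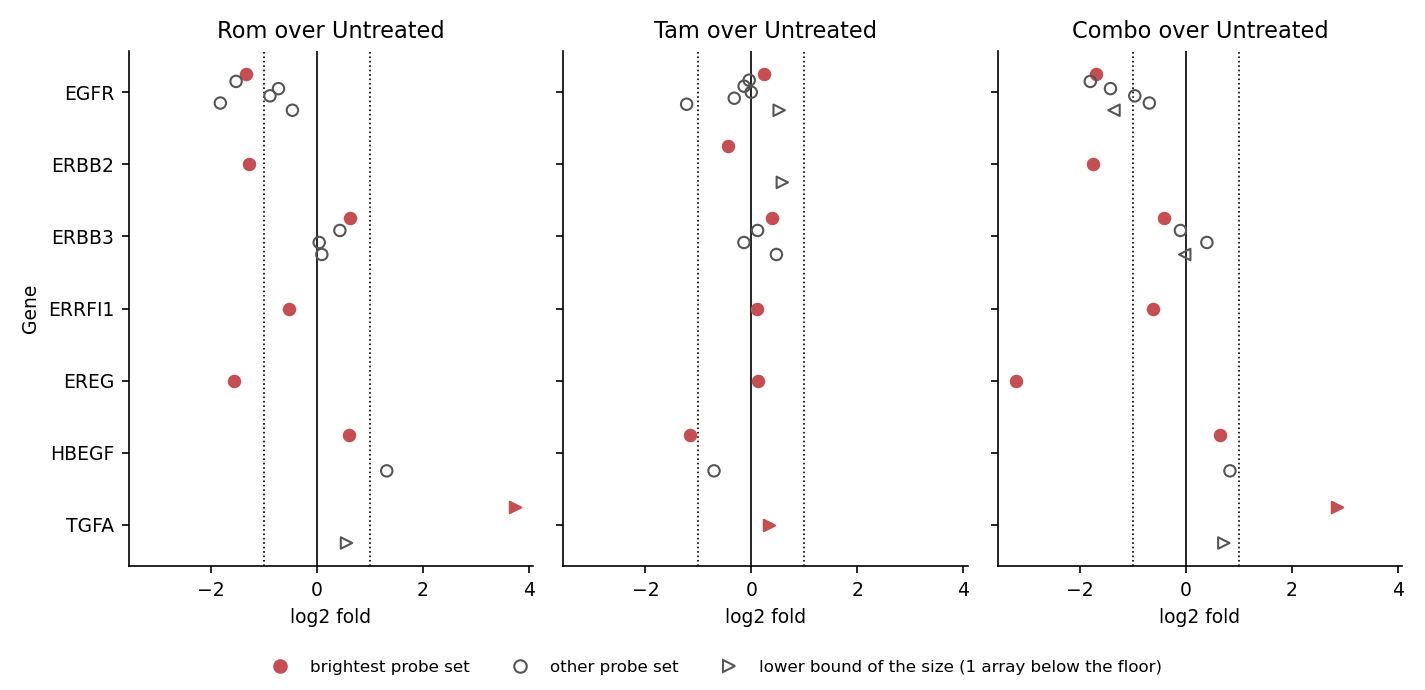
Log2 fold of each probe set of 7 genes over the Untreated array, with the brightest probe set of a gene filled, the others open, and triangles where 1 of the 2 arrays was at the floor so that the size is a lower bound. Dotted lines mark 2-fold. All EGFR probe sets lie left of 0 with romidepsin and with the combination, and the HBEGF probe sets lie left of 0 with tamoxifen and right of 0 with romidepsin.

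Promoter windows show what sequence lies at the starts of the EGFR gene, which fell on both arrays with romidepsin. RefSeq promoter windows (GRCh38.p14, 250 bases before to 50 after a start) were matched by symbol to 9 of the 10 genes, 11 windows in all. Capitals mark motifs searched on both strands: the AP-1 motif TGAGTCA, the cyclic AMP response element TGACGTCA, the GC box GGGCGG, the TATA box TATAAA and the CCAAT box CCAAT. The first EGFR window is chr7:55018767-55019066 and the other, at an internal start, is chr7:55109589-55109888, both on the + strand. The first is 75.3% G and C and holds 3 GC boxes. The other is 42.0% G and C and holds 2 AP-1 motifs and 2 TATA motifs, the AP-1 motifs starting at positions -232 and -136. Of 35116 windows of this length, 45.0% held a GC box, 4.95% an AP-1 motif and 11.5% a TATA motif. A match is a run of letters and does not show binding, and the probe sets do not say which start was used.
EGFR first start: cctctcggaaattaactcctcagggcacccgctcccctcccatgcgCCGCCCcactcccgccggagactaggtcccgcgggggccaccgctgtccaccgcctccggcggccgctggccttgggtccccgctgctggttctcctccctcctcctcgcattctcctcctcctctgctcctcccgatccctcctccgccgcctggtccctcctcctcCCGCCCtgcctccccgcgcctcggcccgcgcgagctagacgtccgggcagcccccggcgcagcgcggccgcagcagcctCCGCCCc
EGFR internal start: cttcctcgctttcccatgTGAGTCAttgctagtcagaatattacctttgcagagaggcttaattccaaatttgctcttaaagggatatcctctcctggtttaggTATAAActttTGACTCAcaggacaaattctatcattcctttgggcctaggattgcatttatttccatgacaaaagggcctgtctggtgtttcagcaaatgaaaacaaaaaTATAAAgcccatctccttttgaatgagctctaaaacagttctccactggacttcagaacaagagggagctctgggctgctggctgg

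ERBB2, the partner receptor without a ligand of its own, had a signal of 438 on the Rom array, 783 on the Tam array and 314 on the Combo array, against 1066 on the Untreated array. It was lower on all 3 treated arrays, and the arrays with romidepsin were the lowest. The folds were 2.43-fold lower for Rom and 3.39-fold lower for Combo against Untreated, and 2.49-fold lower for Combo against Tam. Tamoxifen alone gave 1.36-fold lower, which is under 2-fold. These values rest on 1 probe set that can match several transcripts. Of the other 2, 1 was below the floor everywhere, and the remaining one was above it only on the Tam array, at 99.4, against 57.0 on the Untreated array.

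ERBB3, the neuregulin receptor with little kinase activity, was highest on the Rom array. Its signal was 474 with romidepsin, 402 with tamoxifen and 230 with the combination, against 307 without treatment. The Combo array was the lowest of the 4, and its signal was 2.07-fold lower than on the Rom array. Neither drug alone nor the combination moved ERBB3 by 2-fold against Untreated, with log2 folds of 0.63, 0.39 and -0.42 for Rom, Tam and Combo. The 3 ERBB3 probe sets above the floor on both arrays did not share the direction of Combo over Rom: the log2 folds were -1.05 for the brightest, -0.54 for the next and 0.35 for the dimmest. Scaling to the spike-in controls gave -0.74 for the ERBB3 gene and so ended this call, as did adding a pseudocount in place of the floor (-0.87), the floor at the 75th percentile (-0.22) and the median over probe sets (0.35).

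ERBB4, a receptor for neuregulins and for several EGF-like ligands, had 4 probe sets. Its brightest read 42.8 on the Rom array, 31.3 on the Tam array, 73.4 on the Combo array and 25.7 on the Untreated array. Only the Combo value was above the floor, by 1.11-fold, and the other 3 ERBB4 probe sets were below it on every array.

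ERRFI1, a cytoplasmic protein that binds and inhibits the receptor kinases, kept a strong signal in all samples. It read 7386 on the Rom array, 11498 on the Tam array and 6921 on the Combo array, against 10696 on the Untreated array. The arrays with romidepsin were again the lower ones. The differences were 1.45-fold lower for Rom and 1.55-fold lower for Combo over Untreated and 1.66-fold lower for Combo over Tam, so ERRFI1 did not fall by the 2-fold rule in any of the 5 comparisons. It has 1 probe set.

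Among the ligands, EREG and TGFA moved in opposite directions with romidepsin. EREG encodes epiregulin, and its signal was 394 on the Rom array, 1273 on the Tam array and 126 on the Combo array, against 1160 on the Untreated array. The Tam and Untreated arrays were high, the Rom array was lower and the Combo array was the lowest. EREG was 2.94-fold lower in Rom and 9.20-fold lower in Combo cells than in Untreated cells. The Combo signal was also 3.12-fold lower than the Rom signal and 10.1-fold lower than the Tam signal. Ranked among all measured genes, the EREG log2 fold lay at percentile 0.51 in Combo over Untreated and at percentile 0.23 in Combo over Rom. The other EREG probe set was below the floor on all 4 arrays, so the gene is read by 1 probe set only.

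TGFA, which encodes TGF-alpha, gave the largest rise of the 9 genes. Its signal was 881 on the Rom array, 83.2 on the Tam array and 476 on the Combo array, against 61.8, below the floor, on the Untreated array. TGFA rose at least 13.3-fold with romidepsin and at least 7.17-fold with the combination against Untreated, and 5.72-fold in Combo over Tam. The rise with the combination ended with the floor at the 75th percentile, at a log2 fold of 0.22, and with the median over probe sets, at 0.72. The rise with romidepsin was 1.11 with that floor and 0.56 with the median over probe sets. Combo was 1.85-fold lower than Rom, under 2-fold. A dimmer TGFA probe set read 97.7 on the Rom array, 12.7 on the Tam array and 109 on the Combo array, against 36.8 on the Untreated array. It was above the floor only on the arrays with romidepsin, at least 1.47-fold higher in Rom and at least 1.64-fold higher in Combo than in Untreated. The third probe set stayed below the floor, with its highest value, 61.9, on the Rom array and 6.86 on the Untreated array.

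HBEGF, which encodes heparin-binding EGF-like growth factor, was the 1 gene of the set that fell with tamoxifen alone. Its signal was 984 on the Rom array, 287 on the Tam array and 1007 on the Combo array, against 646 on the Untreated array. The Tam array was the lowest, and the Rom and Combo arrays were nearly equal and the highest. HBEGF was 2.25-fold lower in Tam than in Untreated cells, and 3.50-fold higher in Combo than in Tam cells. The rise over Untreated was 1.52-fold for Rom and 1.56-fold for Combo, under 2-fold. The other HBEGF probe set above the floor read 496 on the Rom array, 122 on the Tam array and 354 on the Combo array, against 199 on the Untreated array. It moved the same way in these 4 comparisons, with log2 folds of 1.32 for Rom, -0.71 for Tam and 0.83 for Combo over Untreated and 1.54 for Combo over Tam. In Combo over Rom the brightest was at 0.03 and the other at -0.49. Scaling to the spike-in controls, which were at 0.78 times their Untreated level on the Tam array, gave HBEGF a log2 fold of -0.81 with tamoxifen, short of 2-fold. The floor at the 75th percentile gave -0.66, and the median over all 4 HBEGF probe sets, 2 of them below the floor everywhere, gave 0.00 at 2 decimals.

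BTC, which encodes betacellulin, was below the floor on every array. The brighter of its 2 probe sets read 18.3 on the Rom array, 34.0 on the Tam array, 41.4 on the Combo array and 21.3 on the Untreated array. Values this low have no order.

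The promoter windows of the 3 ligand genes that moved are given for comparison with the EGFR windows. The EREG window (chr4:74364895-74365194, + strand) holds a TATA motif at -32 and 2 CCAAT boxes, no GC box, and is 57.7% G and C. The TGFA window at the annotated gene start (chr2:70553777-70554076, - strand) holds 4 GC boxes and is 75.3% G and C. The other TGFA window (chr2:70553397-70553696, - strand) holds none of the 5 motifs, is 63% G and C and is not printed. The HBEGF window (chr5:140346554-140346853, - strand) holds 5 GC boxes, 2 of which share a base, and is 75% G and C. The median over all windows was 58.7% G and C, and 34.6% of windows held a CCAAT box. The cyclic AMP response element was in none of these 3 windows and in 1.85% of all.
EREG: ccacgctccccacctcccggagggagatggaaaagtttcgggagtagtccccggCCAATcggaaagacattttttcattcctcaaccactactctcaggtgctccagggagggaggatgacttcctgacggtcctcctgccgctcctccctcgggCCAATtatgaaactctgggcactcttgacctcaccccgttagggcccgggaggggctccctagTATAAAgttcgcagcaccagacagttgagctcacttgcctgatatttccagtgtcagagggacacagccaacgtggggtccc
TGFA: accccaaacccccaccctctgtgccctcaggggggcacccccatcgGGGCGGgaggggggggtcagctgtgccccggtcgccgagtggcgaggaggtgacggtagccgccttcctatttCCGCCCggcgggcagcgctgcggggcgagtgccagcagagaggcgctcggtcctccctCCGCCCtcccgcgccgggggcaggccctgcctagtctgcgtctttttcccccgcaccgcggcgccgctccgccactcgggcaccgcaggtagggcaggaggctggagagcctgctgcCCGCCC
HBEGF: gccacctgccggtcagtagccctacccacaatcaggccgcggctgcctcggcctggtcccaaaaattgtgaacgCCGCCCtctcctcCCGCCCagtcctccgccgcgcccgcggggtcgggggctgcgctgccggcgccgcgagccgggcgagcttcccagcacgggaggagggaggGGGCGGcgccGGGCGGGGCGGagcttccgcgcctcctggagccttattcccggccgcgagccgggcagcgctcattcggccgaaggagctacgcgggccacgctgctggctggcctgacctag

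What tamoxifen added was read from Combo over Rom, and what romidepsin added to tamoxifen from Combo over Tam. In Combo over Rom, 2 of 8 measured genes fell (ERBB3 and EREG) and 0 rose, where 2.27% of all genes fell, 4.07% rose and 6.35% did either. In Combo over Tam, EGFR, ERBB2 and EREG fell and HBEGF and TGFA rose, 5 of 8, where 11.8% of all genes fell, 14.8% rose and 26.6% did either. ERBB3 was 1.75-fold lower in that comparison.

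The log2 folds of both drugs alone were summed and set against the measured combination. EREG had a measured log2 fold of -3.20 in Combo over Untreated against a sum of -1.42, a departure of -1.78. ERBB3 had a measured -0.42 against a sum of 1.02, a departure of -1.44. HBEGF departed the other way, with a measured 0.64 against a sum of -0.56, a departure of 1.20. The TGFA departure was -1.21 with its Untreated signal set to the floor. The EGFR departure was -0.60, that of ERRFI1 -0.20 and that of ERBB2 -0.03. Departures of at least 1 on the log2 scale were thus seen in 4 of 8 genes, against 4.50% of 14414 genes above the floor on any array. The genes were chosen with earlier results of these data known, so this contrast is a description only. The measure uses each array once, so an error on any 1 array enters it in full, and no test was possible. With the floor at the 75th percentile, or with the median over probe sets, 0 genes departed that far.

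**Figure D3:**
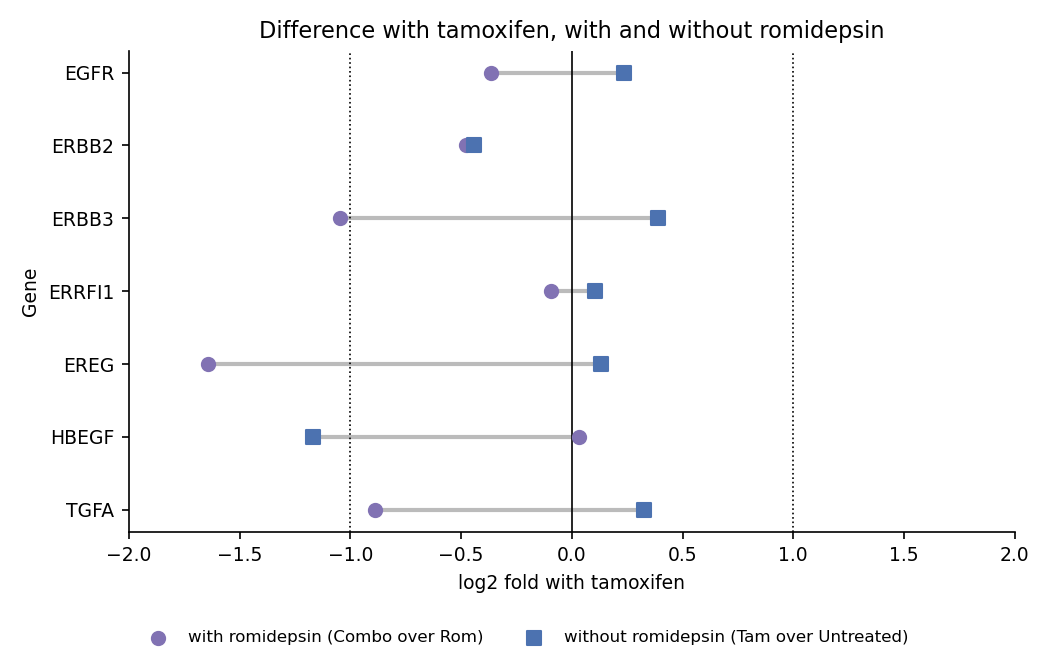
Log2 fold with tamoxifen for 7 genes, as circles with romidepsin (Combo over Rom) and as squares without it (Tam over Untreated), with 2-fold as dotted lines. EREG (-1.64), ERBB3 (-1.05) and TGFA (-0.89) lie left of 0 with romidepsin and right of it without, HBEGF lies at 0.03 with romidepsin and at -1.17 without, and ERBB2 has nearly equal values. The TGFA square is a lower bound.

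Genes whose signals over the 4 arrays were most like those of a member were sought among 11052 genes above the floor on all arrays, by the distance between log2 signals centred on each gene. The nearest to EGFR was SVIL, an actin-binding protein, at a distance of 0.07, with signals of 1046 (Rom), 3077 (Tam), 836 (Combo) and 2534 (Untreated). TRIB3, a pseudokinase, followed at 0.09 and CHDH, choline dehydrogenase, at 0.10. Nearest to ERBB2 were AP2B1, a subunit of a clathrin adaptor, at 0.02, the replicative helicase subunit MCM4 at 0.07 and OPA3 at 0.07. ERBB3 was nearest to LINC02352 at 0.10, MAPK3, which encodes the kinase ERK1, at 0.15 and MYL5, a myosin light chain, at 0.17. The distances were larger for EREG, with LAT2 at 0.22, DLK2 at 0.38 and the transcription factor STAT6 at 0.40. HBEGF was nearest to MRAP2, an accessory protein of melanocortin receptors, at 0.04, COQ8A, a coenzyme Q biosynthesis gene, at 0.17 and the Mediator subunit MED26 at 0.20. The distance rests on 4 arrays and is a description only.

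Of 6 other ligand genes of the family, 5 had a probe set, and 2, the neuregulin genes NRG1 and NRG2, were above the floor. Both fell in Rom and in Combo over Untreated, where 9.27% and 14.4% of all measured genes fell. NRG1, a ligand of ERBB3 and ERBB4, read 203 on the Rom array, 389 on the Tam array and 102 on the Combo array, against 484 on the Untreated array, 2.39-fold lower for Rom and 4.73-fold lower for Combo. NRG2 read 146 on the Rom array, 260.0 on the Tam array and 84.2 on the Combo array, against 328 on the Untreated array, 2.24-fold lower for Rom and 3.90-fold lower for Combo. The order over the arrays was Untreated, Tam, Rom, Combo for both. Tamoxifen alone moved neither by 2-fold, with log2 folds of -0.32 for NRG1 and -0.34 for NRG2. With the floor at the 75th percentile 0 of the 2 passed 2-fold in either comparison, and with the median over probe sets or with specific probe sets only 1 did. With the pseudocount 1 did in Rom over Untreated. EGF read 24.5 on the Rom array, 12.9 on the Tam array, 34.6 on the Combo array and 19.0 on the Untreated array, and EGF, NRG3 and NRG4 were below the floor on all arrays. EPGN was not analysed here.

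Of the genes of ligand release, 6 were listed. Of 5 measured in Rom over Untreated, 0 rose and 0 fell, and the median log2 fold was 0.09 against 0.06 over all genes. Over all genes 14.3% rose and 9.27% fell there. The floor at the 25th percentile and the median over probe sets each gave 1 call of this list in Rom over Untreated. In Combo over Untreated 1 of 6 rose and 0 fell, with a median of 0.09 against 0.09, where 19.8% of all genes rose and 14.4% fell. With centred medians or quantile normalization 2 of the list passed 2-fold there, and with the median over probe sets 3. That gene was ADAM10, a protease that cuts betacellulin and EGF precursors, at 10024 in Combo and 3530.4 in Untreated cells, 2.84-fold higher. ADAM17, the protease that releases TGF-alpha, amphiregulin and HB-EGF, read 1044 on the Rom array, 1409 on the Tam array and 1329 on the Combo array, against 978 on the Untreated array. Its largest difference from Untreated, 1.44-fold with tamoxifen, was under 2-fold. RHBDF2, a cofactor of ADAM17, was 1.94-fold lower in Combo than in Untreated cells, and ADAM9 was 2.20-fold lower in Combo than in Tam cells.

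Of the adaptors and kinases that carry the signal, 18 of 26 listed had a probe set. In Rom over Untreated 1 rose and 1 fell among 18, and their median log2 fold was 0.12 against 0.06 over all genes, and in Combo over Untreated 2 rose and 1 fell, with a median of 0.08 against 0.09. Over all genes 23.6% passed 2-fold in Rom and 34.1% in Combo over Untreated. In Rom over Untreated 0 of the list passed with the floor at the 75th percentile or the median over probe sets, and 1 with the pseudocount. In Combo over Untreated 5 passed with centred medians, and 1 with that floor or with the pseudocount. PIK3R1, the regulatory subunit of PI3K, was at 656 on the Rom array, 432 on the Tam array and 1076 on the Combo array, against 246 on the Untreated array, 2.67-fold higher for Rom and 4.37-fold higher for Combo. GAB1, a docking protein for PI3K and SHP2, rose 2.13-fold in Combo cells. The kinase SRC was 2.11-fold lower with romidepsin, at 191 against 403 in Untreated cells. SOS1, an exchange factor for RAS, was the 1 gene of 18 called with tamoxifen alone, 2.19-fold higher, where 4.77% of all genes passed 2-fold. With centred medians or the median over probe sets 0 of the list passed 2-fold with tamoxifen alone, and with spike-in scaling 4 did.

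Of 21 listed genes linked to receptor down-regulation, 19 had a probe set. In Rom over Untreated 5 of 18 rose and 2 fell, and the median log2 fold was 0.33 against 0.06 over all genes. In Combo over Untreated 8 of 18 rose and 3 fell, with a median of 0.66 against 0.09, and with tamoxifen alone 0 of 19 rose or fell, with a median of 0.25 against 0.01. Rises outnumbered falls over all genes too, with 14.3% and 9.27% in Rom and 19.8% and 14.4% in Combo over Untreated. Taking the median over probe sets gave 4 calls of this list instead of 7 in Rom, and 7 instead of 11 in Combo over Untreated. With tamoxifen alone 4.77% of all genes passed 2-fold. Scaling to the spike-in controls gave 6 calls of this list there, and the floor at the 25th percentile and the pseudocount each gave 1. LRIG1, a membrane protein that promotes degradation of EGF receptors, read 866 on the Rom array, 192 on the Tam array and 1208 on the Combo array, against 162 on the Untreated array. LRIG1 was 5.36-fold higher in Rom and 7.47-fold higher in Combo than in Untreated cells, but its 2 measured probe sets did not share a direction in Combo over Untreated. PTPN1, a phosphatase that acts on EGFR, was 2.95-fold higher and CBLB, a ubiquitin ligase for receptors, 2.94-fold higher with romidepsin. The endosomal deubiquitinase USP8 was 3.10-fold higher and the endocytic adaptor EPS15 2.71-fold higher in Combo than in Untreated cells. SOCS3, a feedback inhibitor of cytokine signalling, fell 4.09-fold in Combo cells, to 1045 against 4277 in Untreated cells. CBL, the main ubiquitin ligase of EGFR, differed by at most 1.16-fold from Untreated and its probe sets did not share a direction.

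Transcripts known to follow receptor and ERK signalling went both ways. In Rom over Untreated 4 of 24 rose and 6 fell, and the median log2 fold was 0.01 against 0.06 over all genes, and in Combo over Untreated 3 rose and 8 fell, with a median of -0.22 against 0.09. With tamoxifen alone 0 of 23 rose or fell, where 4.77% of all genes passed 2-fold, and the median was -0.20 against 0.01. Spike-in scaling, the floor at the 25th percentile and the median over probe sets each gave 1 call of this list there. Over all genes 14.3% rose and 9.27% fell in Rom, and 19.8% rose and 14.4% fell in Combo over Untreated. FOSL1, an AP-1 subunit, was 19.5-fold lower in Combo than in Tam cells, while EGR1, a transcription factor, was 8.50-fold higher and DUSP6, a phosphatase that acts on ERK, 5.88-fold higher. In Combo over Rom 3 of 24 fell and 0 rose, where 2.27% of all genes fell and 4.07% rose. PHLDA1 was 3.13-fold lower, MYC 2.57-fold lower and IER3 2.54-fold lower. With specific probe sets only, 1 of the list passed 2-fold there, and with centred medians or the median over probe sets 4 did. SPRY4, a feedback inhibitor, read 587 on the Rom array, 954 on the Tam array and 512 on the Combo array, against 947 on the Untreated array, under 2-fold in each comparison.

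**Figure D4:**
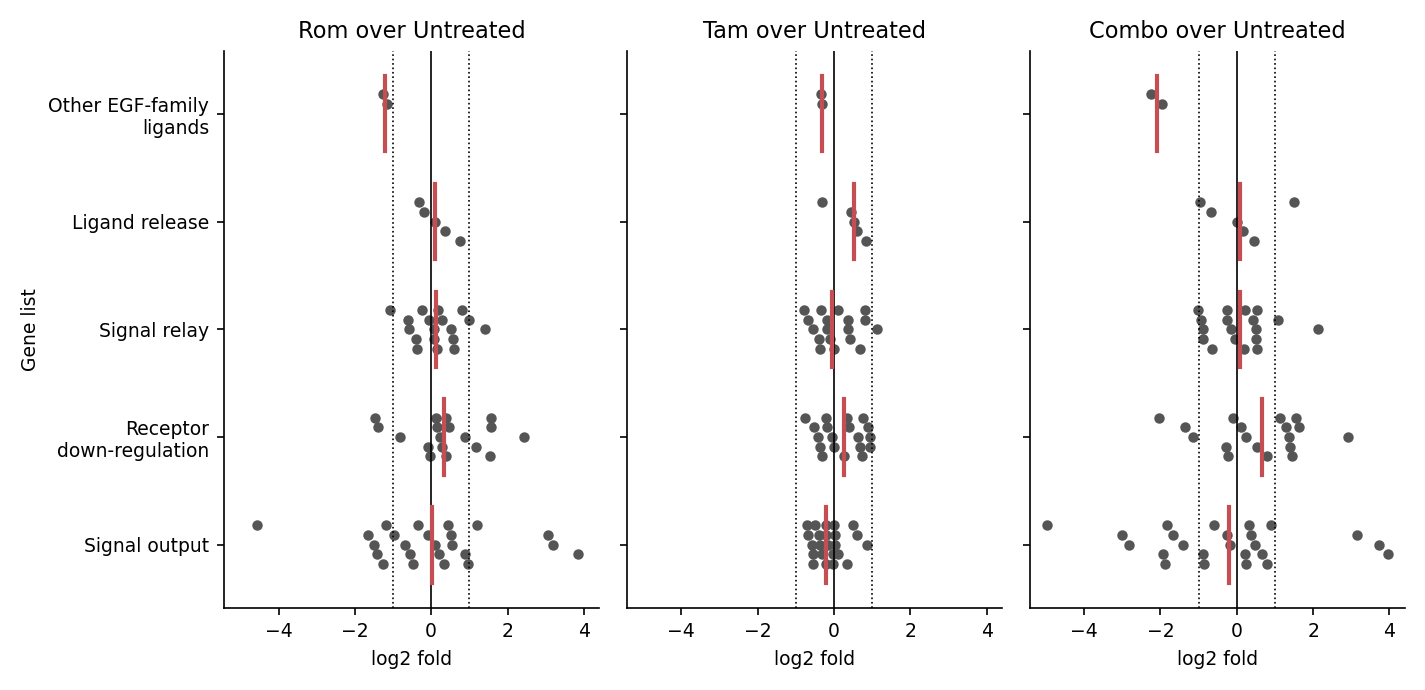
Log2 fold over the Untreated array of each measured gene in 5 lists of the EGF receptor pathway, with 1 point per gene, the list median as a red bar and 2-fold as dotted lines. The other ligands NRG1 and NRG2 lie left of 0 in all 3 comparisons, receptor down-regulation has a median of 0.66 with the combination, and signal output spreads to both sides with romidepsin and with the combination.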

How the data were processed

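Per the labels' protocols, biotin-labelled cRNA was made from total RNA of Panc1 cells and hybridised to Affymetrix arrays. The deposited values are probe-set intensities, and the submitters' processing notes name MAS5. The sources used here give neither its version nor detection calls. The mean of the deposited intensities after trimming 2% at each end was 499.9 on all 4 arrays. Each array holds 54675 probe sets, 62 of them controls. The annotation names 1 gene for 41097, several for 1801 and none for 11721 others, and 41043 matched the RefSeq gene table (GRCh38.p14) with 0 symbols changed.

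From these, log2 folds were computed after setting intensities below 66.4, the median of all non-control values, to that floor. A gene counted as measured when either array of a comparison lay above the floor. Genes named are the 10 members, up to 4 genes a list with the largest folds whose probe sets share a direction, a short set of pathway genes always named, and the 3 nearest genes by pattern. LRIG1 and CBL belong to that short set. The members and lists were chosen with earlier results of these data known, so their counts beside the shares over all genes are descriptions only. Groups follow the labels, with 1 array each and no test. Alternatives were 3 scalings, 3 treatments of low values and 2 choices of probe set. Columns of other samples numbered 0. Python 3.11.15, numpy 2.4.6, pandas 2.3.3 and matplotlib 3.10.9 were used, and the steps were tested on simulated data.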

Additional observations from a re-analysis of the deposited data

Results flagged for a closer look

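In 3 genes the difference with tamoxifen had opposite signs with and without romidepsin, and it reached 2-fold in 1 of the 2 settings. The log2 fold of EREG was -1.64 in Combo over Rom and 0.13 in Tam over Untreated. That of ERBB3 was -1.05 in Combo over Rom and 0.39 in Tam over Untreated. That of HBEGF was 0.03 in Combo over Rom and -1.17 in Tam over Untreated. With 1 array a group the difference between the 2 settings was not tested. The same was seen in 149 of 12363 genes measured in both settings, 1.21%. The EREG value of 0.13 and the HBEGF value of 0.03 are smaller than the median difference of 0.22 between probe sets of a gene in either comparison. With arrays centred on their medians the EREG value in Tam over Untreated was -0.015 and the HBEGF value in Combo over Rom was -0.07. Neither gene then had opposite signs. The ERBB3 probe sets did not share a direction in Combo over Rom.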

How the results depend on the processing

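Of 16 member folds of at least 2-fold, 4 stayed past 2-fold under every one of the 8 alternatives that could measure them. Of these, only EREG in Combo over Tam was measured under all 8. ERBB2 in Rom and in Combo over Untreated and EREG in Combo over Rom were measured under 6. The median over probe sets gave no value for them. Taking the median over a gene's probe sets, many of them dim, changed most: members called numbered 0 instead of 4 for Rom over Untreated, 0 instead of 4 for Combo over Untreated, 0 instead of 1 for Tam over Untreated, 0 instead of 2 for Combo over Rom and 1 instead of 5 for Combo over Tam. Under it log2 folds turned sign for HBEGF (0.0047 in Tam over Untreated, -0.0047 in Combo over Tam) and ERBB3 (0.35 in Combo over Rom), as did the departures of ERBB3 (0.49), HBEGF (-0.13) and TGFA (0.16), and 0 of 4 departures remained past 1. The floor at the 75th percentile (signal 408) left 3 called for Combo over Untreated, 0 for Tam over Untreated, 0 for Combo over Rom, 3 for Combo over Tam and 0 departures, and 10 of 20 member probe sets above it. Scaling to the spike-in controls left 0 called for Tam over Untreated and 1 for Combo over Rom, and a pseudocount in place of the floor 1 for Combo over Rom. With only specific probe sets, 11 were above the floor and ERBB2 had no value.

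In the pathway lists together, genes called in Rom over Untreated numbered 21, and 12 with the floor at the 75th percentile. In Tam over Untreated they numbered 1, and 0 with centred medians, 12 with spike-in scaling, 3 with the floor at the 25th percentile, 2 with the pseudocount and 2 with the median over probe sets. In Combo over Rom they numbered 4, and 8 with spike-in scaling and 2 with specific probe sets. Over all genes, rises made up 77.5% of calls in Tam over Untreated as deposited, 98.3% with spike-in scaling, 63.4% after quantile normalization and 48.0% with centred medians. For Combo over Rom the shares were 64.2%, 93.7%, 58.6% and 46.4%, for Combo over Untreated 57.9%, 72.8%, 51.7% and 41.2%, and for Rom over Untreated 60.7%, 58.8%, 54.6% and 47.4%. Spike-in scaling moved the median log2 fold of all genes in Tam over Untreated to 0.33, against 0.01 as deposited. No paired analysis was possible because each group has 1 array, and for the same reason no array could be left out. ERBB4, BTC and most dim probe sets lie too near background for a fold.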

Other observations

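For 3 receptors, 1 dim probe set each read highest on the tamoxifen array, while other dim probe sets of EGFR, ERBB2 and ERBB3 did not. A dim EGFR probe set was at 95.4 on the Tam array, against 16.4 on the Untreated array, and was below the floor on the other 3 arrays. A dim ERBB2 probe set was at 99.4 on the Tam array against 57.0 on the Untreated array, and a dim ERBB3 probe set at 93.4 against 67.4. The brightest probe sets differed by log2 folds of 0.23 for EGFR, -0.44 for ERBB2 and 0.39 for ERBB3 in the same comparison. The 3 probe sets were picked out after their values were seen.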
